A study of Sus scrofa with 9 samples.

Results

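The genes described here are the WNT ligands of the miniature pig tooth germ with the proteins that release, receive, amplify and block them. They were chosen by symbol: every listed row named as a WNT, a frizzled receptor (FZD), a Dickkopf (DKK), a secreted frizzled-related protein (SFRP) or an R-spondin (RSPO), together with LGR4 to LGR6, LRP4 to LRP6, the TCF7 group, LEF1, AXIN1, AXIN2, CTNNB1, WIF1, KREMEN1, NKD1, NKD2, PORCN and WLS. This gave 49 members among the 34580 rows of the table, found by symbol alone. By role there were 15 WNT ligands, 2 release factors, 7 frizzled receptors, 3 LRP co-receptors, 7 R-spondins and R-spondin receptors, 9 inhibitors and 6 intracellular members. WNT10A, WNT6, WNT7B, WNT9B, FZD1, FZD8, FZD10, SFRP4, TCF7, NKD1 and NKD2 were not analysed here.

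WNT proteins are secreted, lipid-carrying signals that bind frizzled receptors and, on the β-catenin branch, the co-receptors LRP5 and LRP6. Binding stops the breakdown of β-catenin, which then enters the nucleus and works with LEF1 and TCF proteins on target genes, while R-spondins keep the receptors at the cell surface and DKK, SFRP and WIF1 proteins hold the signal back. In teeth, the enamel knots of the epithelium and the dental mesenchyme exchange WNT signals, and loss of LEF1 arrests the germ early.

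RNA was sequenced from germs of the third deciduous molar of the mandible (Dm3), taken from fetuses that were delivered by caesarean section from pregnant miniature pigs under ketamine and xylazine. Each of the 3 groups held 3 libraries: E40 (embryonic day 40), when the germ is a cap, E50, an early bell, and E60, a late bell. No other treatment or genotype was named. Whole germs were used, so epithelium and mesenchyme were read together, and fewer cells of a type and less RNA per cell cannot be told apart. Nothing in the labels ties a library to a separate fetus or litter, so p-values measure only the spread between these libraries, which may be technical.

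The unit of the table is FPKM, fragments scaled to the length of the gene's exons and to the mapped fragments of the library, which allows levels to be compared between genes. Values rose in steps, and the largest step that made every value of a row whole was taken as 1 read. Such a step was found for all 28963 rows above 0, but a row above 0 in 1 library fits by construction. The recovered reads are therefore the smallest whole numbers that fit the values. Of 24022 rows with a step in both depth sets, 85.6% gave the same value of 1 read from each. The 3 E50 libraries and E60 library 1 held 14362235 to 16674750 recovered reads (the deep libraries), whereas the 3 E40 libraries and E60 libraries 2 and 3 held 938527 to 1760356 (the shallow libraries). A single read on a gene of 1 kilobase was worth 0.568 to 1.07 FPKM in the shallow libraries and 0.06 to 0.0696 FPKM in the deep ones. Pearson's r across genes was 0.959 to 0.983 between deep libraries, 0.743 to 0.838 between shallow libraries and 0.301 to 0.609 between a deep and a shallow one. All of E40 was therefore shallow and all of E50 deep, and stage and depth set cannot be told apart between them. MSX1, a factor of the dental mesenchyme, was present in every library, at 16.3 to 50.7 FPKM. Markers of skeletal muscle summed to 78.3 to 112 FPKM at E40, 10.7 to 14.5 FPKM at E50 and 6.64 to 14.1 FPKM at E60, and 4 of 5 tested were called lower from E40 to E60 inside the shallow libraries. Enamel organ epithelium markers summed to 3417 to 4898 FPKM at E40, 2428 to 3387 at E50 and 4747 to 21584 at E60, and dental mesenchyme markers to 1218 to 1842, 3491 to 4004 and 1301 to 5327, with 3 of 9 (all higher) and 2 of 10 (1 higher, 1 lower) called in that comparison. The 10 rows with most reads took 33.2 to 56.3% of the reads in the shallow libraries and 8.32 to 14.4% in the deep ones. The part of these differences in the results was not tested.

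The limma package was applied to log2(FPKM + 0.1) of the 19618 rows that reached 1 FPKM in at least 2 libraries, and differences were called at a Benjamini-Hochberg adjusted p under 0.05 and a change of at least 2-fold. The stage fit compared the stages as labelled. The stage and depth set fit added a term for deep against shallow libraries, so that E40 to E60 compared E60 libraries 2 and 3 with E40 inside the shallow libraries, E50 to E60 compared E60 library 1 with E50 inside the deep ones, and E40 to E50 followed from both. This holds for the differences only. Their SE and p-values used a spread pooled over all groups, so the closely matching E50 libraries also entered those given inside the shallow libraries. E60 library 1 is the only deep library of its stage, so every difference of this fit that rests on it assumes that it varies like the libraries of the other groups and compares libraries rather than conditions. Of the 49 members, 44 passed the filter. The other 5 were WNT1, WNT8A, RSPO1, RSPO3 and DKK4.

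**Figure D1:**
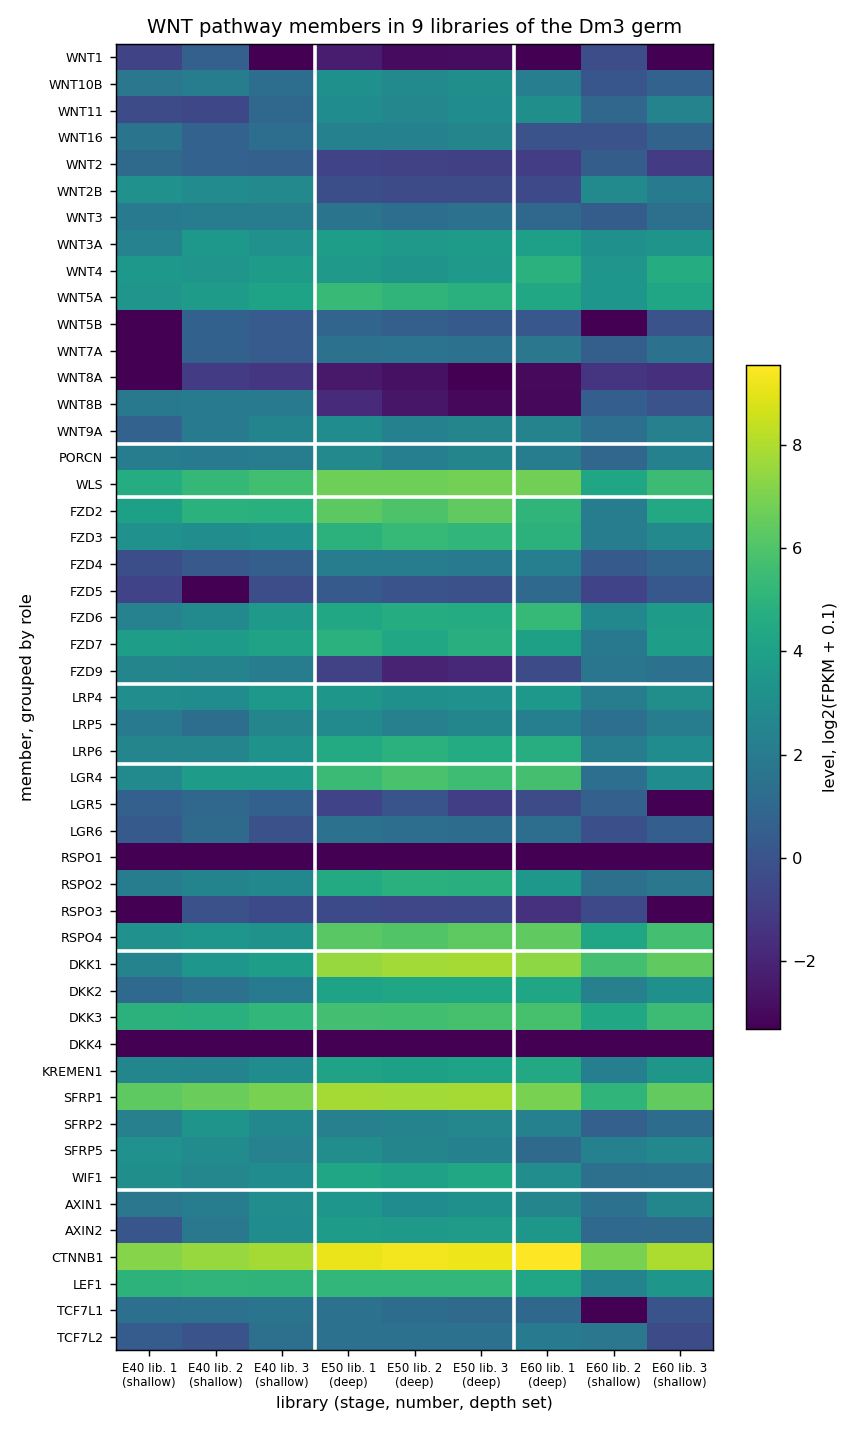
Level of the 49 members (one line each, grouped by role) in the 9 libraries, as log2(FPKM + 0.1) on the colour scale, with stage and depth set under each column. CTNNB1 and SFRP1 are among the brightest lines, and DKK1 is so only at E50 and E60. WNT2B, WNT8B and FZD9 are darker in the 4 deep libraries than in the 5 shallow ones.

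Among the ligands, WNT5A and WNT4 had the highest levels. WNT5A, a ligand best known for signalling without β-catenin, had 10.5, 13.5 and 17.7 FPKM in the E40 libraries, 41.9, 34 and 28.4 FPKM in the E50 libraries, and 20.9 FPKM in E60 library 1 beside 10.7 and 18.6 FPKM in E60 libraries 2 and 3. Its E50 libraries lay above all others, and E40 and E60 overlapped. From E40 to E50 WNT5A rose by 1.33 ± 0.38 in the stage fit (log2 fold change ± SE, n = 3 libraries per stage, limma adjusted p = 0.0256). With the depth set in the fit this value was 0.77 ± 0.54 and was not called. WNT4, which is expressed in the dental epithelium, had 11.6, 10.3 and 13.5 FPKM in the E40 libraries, 12.5, 10.1 and 12.1 FPKM in the E50 libraries, and 29.3 FPKM in E60 library 1 beside 10.4 and 25.2 FPKM in E60 libraries 2 and 3. E60 libraries 1 and 3 were highest and E60 library 2 lay within the E40 range. Inside the deep libraries the WNT4 difference from E50 to E60 was 1.34 ± 0.46 with a limma adjusted p of 0.983, so it did not pass. WNT5A or WNT4 was the highest WNT ligand in each of the 9 libraries.

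WNT3A, a ligand of the β-catenin branch, had 5.17, 11.5 and 9.16 FPKM in the E40 libraries, 14.9, 12.5 and 13.3 FPKM in the E50 libraries, and 15.4 FPKM in E60 library 1 beside 8.79 and 10.1 FPKM in E60 libraries 2 and 3. Its E40 and E60 libraries overlapped and no comparison called it. WNT10B, a ligand made by dental epithelium, had 3.38, 4.31 and 2.4 FPKM in the E40 libraries, 8.81, 6.96 and 8.3 FPKM in the E50 libraries, and 4.38 FPKM in E60 library 1 beside 0.985 and 1.55 FPKM in E60 libraries 2 and 3. E50 lay above every E40 and E60 library, and E60 library 1 lay above E60 libraries 2 and 3, which held 3 and 6 WNT10B reads. WNT3, another β-catenin ligand, had 3.86, 4.3 and 4.1 FPKM in the E40 libraries, 2.96, 2.39 and 2.77 FPKM in the E50 libraries, and 1.85 FPKM in E60 library 1 beside 1.31 and 2.57 FPKM in E60 libraries 2 and 3. All 3 E40 libraries lay above every E50 and E60 library, yet the E40 to E60 difference inside the shallow libraries, -1.11 ± 0.36, had a limma adjusted p of 0.113. WNT11, which acts mainly outside the β-catenin branch, had 0.672, 0.6 and 1.91 FPKM in the E40 libraries, 7.58, 6.16 and 7.6 FPKM in the E50 libraries, and 8.33 FPKM in E60 library 1 beside 1.83 and 5.38 FPKM in E60 libraries 2 and 3. It rose by 2.80 ± 0.65 from E40 to E50 in the stage fit (limma adjusted p = 0.015), but E40 rested on 1, 1 and 4 reads. With the depth set in the fit the value was 1.43 ± 0.94 and was not called.

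WNT2B and WNT8B moved the other way. WNT2B, a mesenchymal β-catenin ligand in several organs, had 8.87, 7.28 and 6.63 FPKM in the E40 libraries, 0.752, 0.674 and 0.689 FPKM in the E50 libraries, and 0.614 FPKM in E60 library 1 beside 7.01 and 3.84 FPKM in E60 libraries 2 and 3. E60 library 1 lay near E50, and E60 libraries 2 and 3 were nearer E40. The reads themselves were 37, 34 and 39 at E40, 49, 50 and 44 at E50, 44 in E60 library 1 and 43 and 30 in E60 libraries 2 and 3; deep and shallow libraries held similar numbers of reads. WNT8B, known from the developing forebrain, had 3.61, 3.8 and 3.72 FPKM in the E40 libraries, 0.189, 0.0738 and 0.0214 FPKM in the E50 libraries, and 0.0191 FPKM in E60 library 1 beside 1.34 and 0.874 FPKM in E60 libraries 2 and 3. It was never above 16 reads in any library, with 11, 13 and 16 at E40 and 9, 4 and 1 at E50. Both passed the stage fit from E40 to E50, WNT2B at -3.25 ± 0.78 (limma adjusted p = 0.0159) and WNT8B at -4.38 ± 0.96 (limma adjusted p = 0.0131), and both passed again between the deep and shallow libraries of E60, at -2.89 ± 0.50 and -3.31 ± 0.77. WNT1 and WNT8A had at most 3 reads in every library. Among the ligands not called in any stage comparison, WNT9A ranged over 1.57 to 7.67 FPKM, WNT7A over 0 to 3.31, WNT2 over 0.367 to 2.06 and WNT5B over 0 to 1.72.

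The release factors were both present throughout. WLS, the carrier that brings WNT proteins to the cell surface, had 25.3, 38.1 and 49.6 FPKM in the E40 libraries, 105, 103 and 114 FPKM in the E50 libraries, and 111 FPKM in E60 library 1 beside 18.5 and 45 FPKM in E60 libraries 2 and 3. Deep libraries lay above all shallow ones whatever their stage. PORCN, the enzyme that attaches the lipid, had 4.17, 3.72 and 4.07 FPKM in the E40 libraries, 6.64, 4.58 and 5.79 FPKM in the E50 libraries, and 4.19 FPKM in E60 library 1 beside 1.77 and 5.01 FPKM in E60 libraries 2 and 3. All E50 libraries lay above E40, E60 overlapped both, and neither gene was called in any stage comparison.

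FZD2 was the highest frizzled receptor in 7 of the 9 libraries and FZD6 in E60 libraries 1 and 2. FZD2 had 15.9, 29.2 and 28.8 FPKM in the E40 libraries, 77.9, 61.4 and 84.8 FPKM in the E50 libraries, and 34.5 FPKM in E60 library 1 beside 4.21 and 21.7 FPKM in E60 libraries 2 and 3. E50 lay above all other libraries and E60 library 2, with 7 reads, below them. FZD3, which acts in planar polarity and axon guidance, had 8.96, 7.73 and 8.9 FPKM in the E40 libraries, 30.5, 39.4 and 34.8 FPKM in the E50 libraries, and 31 FPKM in E60 library 1 beside 4.06 and 6.53 FPKM in E60 libraries 2 and 3. FZD7, a receptor of the β-catenin branch in many epithelia, had 14.2, 13.8 and 16.8 FPKM in the E40 libraries, 29.8, 21 and 27.4 FPKM in the E50 libraries, and 15.7 FPKM in E60 library 1 beside 3.63 and 14.6 FPKM in E60 libraries 2 and 3. All deep libraries lay above all shallow ones for FZD3, and FZD7 overlapped between E40 and E60. FZD6, a receptor of planar polarity, had 5.11, 6.96 and 12.2 FPKM in the E40 libraries, 19.9, 25 and 24.2 FPKM in the E50 libraries, and 39.2 FPKM in E60 library 1 beside 6.22 and 13.9 FPKM in E60 libraries 2 and 3. It too was higher in all deep libraries, and FZD5 ranged over 0 to 2.01 FPKM.

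FZD4, also the receptor of Norrin, had 0.765, 1.09 and 1.41 FPKM in the E40 libraries, 4.19, 4.26 and 3.96 FPKM in the E50 libraries, and 4.57 FPKM in E60 library 1 beside 1.14 and 1.71 FPKM in E60 libraries 2 and 3. FZD9 had 5.63, 5.29 and 4.2 FPKM in the E40 libraries, 0.455, 0.133 and 0.174 FPKM in the E50 libraries, and 0.689 FPKM in E60 library 1 beside 3.22 and 2.68 FPKM in E60 libraries 2 and 3. The 4 deep libraries were above all shallow libraries for FZD4 and below all of them for FZD9. In the stage fit from E40 to E50, FZD3 rose by 2.02 ± 0.65 (limma adjusted p = 0.037), FZD4 rose by 1.87 ± 0.59 (adjusted p = 0.0349) and FZD9 was lower at -3.96 ± 0.69 (adjusted p = 0.0123). Between the deep and shallow libraries of the single stage E60 the same receptors differed by 2.56 ± 0.36, 1.64 ± 0.52 and -1.95 ± 0.65, each past the limits, and with the depth set in the fit their E40 to E50 values became -0.55, 0.23 and -2.01, none of them called.

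Of the co-receptors, LRP6 differed between E40 and E50 in the stage fit and LRP4 and LRP5 did not pass. LRP6, a co-receptor of the β-catenin branch, had 5.66, 5.7 and 9.31 FPKM in the E40 libraries, 23.6, 30 and 24.4 FPKM in the E50 libraries, and 25.6 FPKM in E60 library 1 beside 4.26 and 7.45 FPKM in E60 libraries 2 and 3. Its change from E40 to E50 was 1.93 ± 0.60 (limma adjusted p = 0.0336), its difference between depth sets at E60 was 2.16 ± 0.45, and with the depth set in the fit the E40 to E50 value turned to -0.23 ± 0.54. LRP4, which binds the inhibitors sclerostin and WISE and is needed for normal tooth number and shape, had 7.93, 7.65 and 11.5 FPKM in the E40 libraries, 11, 8.6 and 8.91 FPKM in the E50 libraries, and 11.5 FPKM in E60 library 1 beside 4.29 and 8.02 FPKM in E60 libraries 2 and 3. LRP5 had 3.95, 2.44 and 5.6 FPKM in the E40 libraries, 6.98, 4.75 and 5.83 FPKM in the E50 libraries, and 4.63 FPKM in E60 library 1 beside 2.48 and 4.21 FPKM in E60 libraries 2 and 3. Both overlapped across the stages.

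RSPO4 was the highest R-spondin in every library. This secreted amplifier, known for its role in nail formation, had 9.14, 10.9 and 9.72 FPKM in the E40 libraries, 75.7, 66.3 and 81.9 FPKM in the E50 libraries, and 84.2 FPKM in E60 library 1 beside 19.7 and 51.2 FPKM in E60 libraries 2 and 3. All E60 libraries lay above all E40 libraries, including the shallow ones compared at like depth, where the reads were 6, 8 and 9 at E40 and 19 and 63 in E60 libraries 2 and 3. RSPO4 rose by 2.90 ± 0.49 from E40 to E50 in the stage fit (limma adjusted p = 0.0123) and by 1.67 ± 0.37 from E40 to E60 inside the shallow libraries (adjusted p = 0.0393). The second call was lost when the shallow libraries were fitted alone (adjusted p = 0.13) and on leaving out any 1 of the E40 or E50 libraries, and without E60 library 3 the rise was 0.99, under the 2-fold limit. Inside the deep libraries the E50 to E60 difference was 0.18 and did not pass.

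RSPO2, a related amplifier needed in limb and lung, had 4.24, 5.5 and 6.28 FPKM in the E40 libraries, 23.4, 28.5 and 27 FPKM in the E50 libraries, and 11.4 FPKM in E60 library 1 beside 2.62 and 3.28 FPKM in E60 libraries 2 and 3. It rose by 2.29 ± 0.54 from E40 to E50 in the stage fit (limma adjusted p = 0.0153) and differed by 1.93 ± 0.36 between depth sets at E60. With the depth set in the fit the E40 to E50 value was 0.36 ± 0.43 and was not called. In that fit RSPO2 differed by -0.82 from E40 to E60 and by -1.19 from E50 to E60. LGR4, a receptor of the R-spondins, had 6.97, 13.7 and 13.5 FPKM in the E40 libraries, 44.3, 57.4 and 47 FPKM in the E50 libraries, and 54.4 FPKM in E60 library 1 beside 2.53 and 7.68 FPKM in E60 libraries 2 and 3. Its largest difference was between the depth sets, 3.59 ± 0.64 at E60, and no stage comparison called it. LGR5, a marker of epithelial stem cells, had 1.42, 1.9 and 1.51 FPKM in the E40 libraries, 0.501, 0.92 and 0.418 FPKM in the E50 libraries, and 0.662 FPKM in E60 library 1 beside 1.45 and 0 FPKM in E60 libraries 2 and 3. It rested on 0 to 3 reads in the shallow libraries. LGR6 ranged over 0.78 to 2.8 FPKM, RSPO1 was listed at 0 in all 9 libraries, and RSPO3 had at most 11 reads.

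DKK1 had the largest rise of the 8 tested inhibitors from E40 to E50 and from E40 to E60, in both fits. This antagonist, which binds LRP5 and LRP6, had 5.32, 10.7 and 14.1 FPKM in the E40 libraries, 188, 215 and 227 FPKM in the E50 libraries, and 166 FPKM in E60 library 1 beside 51.5 and 85.8 FPKM in E60 libraries 2 and 3. All E50 and E60 libraries lay above all E40 libraries, with 4, 9 and 15 reads at E40 against 57 and 121 in the shallow E60 libraries. DKK1 rose by 4.48 ± 0.50 from E40 to E50 (limma adjusted p = 0.00397) and by 3.26 ± 0.50 from E40 to E60 (adjusted p = 0.0149) in the stage fit. With the depth set in the fit the E40 to E50 value was 3.16 ± 0.67 and was not called. Inside the shallow libraries the rise from E40 to E60 was 2.82 ± 0.41 (95% interval 1.87 to 3.77, limma adjusted p = 0.00961), and it passed with the shallow libraries fitted alone (adjusted p = 0.0472). Inside the deep libraries E60 library 1 differed from E50 by -0.34, which did not pass.

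DKK2, a relative of DKK1 expressed in mesenchyme, had 1.98, 2.65 and 3.86 FPKM in the E40 libraries, 17.6, 19.3 and 19.4 FPKM in the E50 libraries, and 19.4 FPKM in E60 library 1 beside 4.71 and 8.7 FPKM in E60 libraries 2 and 3. It rose by 2.74 ± 0.53 from E40 to E50 in the stage fit (limma adjusted p = 0.0124), with 4, 6 and 11 reads at E40. With the depth set in the fit the value was 1.15 ± 0.59 and was not called. The E40 to E60 difference inside the shallow libraries, 1.20 ± 0.36, had an adjusted p of 0.0916 in limma. DKK3, a more distant relative, had 30.6, 28.8 and 36.3 FPKM in the E40 libraries, 52.1, 49.9 and 56.4 FPKM in the E50 libraries, and 54.8 FPKM in E60 library 1 beside 20.01 and 45.6 FPKM in E60 libraries 2 and 3. KREMEN1, a membrane receptor of DKK proteins, had 5.82, 5.58 and 7.64 FPKM in the E40 libraries, 17.1, 15.6 and 17.8 FPKM in the E50 libraries, and 21.7 FPKM in E60 library 1 beside 4.54 and 11.3 FPKM in E60 libraries 2 and 3. All deep libraries lay above all shallow ones, and it was not called between stages. DKK4, an inhibitor of placode stages, was listed at 0 in all libraries.

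SFRP1, a secreted protein that binds WNT ligands, had 82.7, 97.3 and 124 FPKM in the E40 libraries, 224, 216 and 228 FPKM in the E50 libraries, and 125 FPKM in E60 library 1 beside 34.3 and 86.1 FPKM in E60 libraries 2 and 3. E50 lay above all other libraries and no stage comparison called it. SFRP2 had 4.79, 9.98 and 6.42 FPKM in the E40 libraries, 4.7, 5.27 and 6.15 FPKM in the E50 libraries, and 4.89 FPKM in E60 library 1 beside 1.45 and 2.27 FPKM in E60 libraries 2 and 3. E60 libraries 2 and 3 lay below the 7 other libraries, on 4 and 8 reads, while E60 library 1 lay inside the E50 range. SFRP2 fell by 1.84 ± 0.38 from E40 to E60 inside the shallow libraries (log2 scale, limma adjusted p = 0.0306), and the deep libraries gave -0.12 from E50 to E60. WIF1, a secreted WNT-binding inhibitor, had 8.36, 6.1 and 7.54 FPKM in the E40 libraries, 19.3, 16.5 and 21.1 FPKM in the E50 libraries, and 7.91 FPKM in E60 library 1 beside 2.58 and 2.83 FPKM in E60 libraries 2 and 3. All E60 libraries lay below all E50 libraries, and the shallow E60 libraries, with 5 and 7 reads, lay below E40, which had 9 to 14. WIF1 rose by 1.36 ± 0.47 from E40 to E50 in the stage fit (limma adjusted p = 0.0449), a value that turned to -0.15 ± 0.41 with the depth set in the fit and stood beside a depth set difference of 1.51 ± 0.34 at E60. It fell by 1.39 ± 0.26 from E40 to E60 inside the shallow libraries (adjusted p = 0.0209). Fitted with the shallow libraries alone, neither SFRP2 (adjusted p = 0.13) nor WIF1 (adjusted p = 0.137) passed in limma. On leaving out 1 library the SFRP2 call was lost without E40 library 2 or 3, any E50 library or E60 library 2, and the WIF1 call without E50 library 3. SFRP5, another of the secreted frizzled-related proteins, had 9.1, 7.31 and 5.16 FPKM in the E40 libraries, 7.75, 5.63 and 4.87 FPKM in the E50 libraries, and 2.07 FPKM in E60 library 1 beside 4.95 and 6.31 FPKM in E60 libraries 2 and 3. E60 library 1 was the lowest of the 9, and it was not called between stages.

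Among the intracellular members, LEF1 was lower in the E60 libraries, and from E40 to E60 it was called only inside the shallow libraries. The stage fit gave -1.66 ± 0.43 from E40 to E60 (limma adjusted p = 0.108). LEF1, the nuclear partner of β-catenin that the early germ needs, had 31.7, 34.6 and 33.4 FPKM in the E40 libraries, 37.2, 36 and 37.1 FPKM in the E50 libraries, and 19 FPKM in E60 library 1 beside 5.43 and 11 FPKM in E60 libraries 2 and 3. All 3 E60 libraries lay below every E40 and E50 library. LEF1 was also called between depth sets at E60 (1.29 ± 0.40), and its E40 to E50 difference was 0.15 in the stage fit and -1.14 ± 0.48 with the depth set in the fit. Inside the shallow libraries LEF1 fell by 2.09 ± 0.30 from E40 to E60 (log2 scale, 95% interval -2.77 to -1.40, limma adjusted p = 0.00866), with 103, 126 and 153 reads at E40 and 26 and 67 in E60 libraries 2 and 3. With the shallow libraries fitted alone the limma adjusted p was 0.0529. Inside the deep libraries the E50 to E60 difference was -0.95 ± 0.38 and did not pass (adjusted p = 1).

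CTNNB1, which encodes β-catenin, was the highest member in every library and had 149, 187 and 222 FPKM in the E40 libraries, 565, 636 and 601 FPKM in the E50 libraries, and 747 FPKM in E60 library 1 beside 122 and 245 FPKM in E60 libraries 2 and 3. It rose by 1.71 ± 0.60 from E40 to E50 in the stage fit (limma adjusted p = 0.0483), but the value turned to -0.40 ± 0.58 with the depth set in the fit, and it differed by 2.11 ± 0.49 between depth sets at E60. AXIN2, a direct target and feedback inhibitor of the β-catenin branch, had 0.979, 3.49 and 7.63 FPKM in the E40 libraries, 13.5, 12 and 13.2 FPKM in the E50 libraries, and 11 FPKM in E60 library 1 beside 2.0 and 2.09 FPKM in E60 libraries 2 and 3. Deep libraries lay above all shallow ones, where AXIN2 rested on 1 to 11 reads, and no comparison called it. AXIN1, a scaffold of the complex that breaks β-catenin down, ranged over 2.71 to 10.9 FPKM, and TCF7L2, another partner of β-catenin, over 0.657 to 4.04. TCF7L1, a repressor of the same targets, had 0 and 4 reads in the shallow E60 libraries, and its E40 to E60 difference of -3.16 ± 0.83 had a limma adjusted p of 0.0644.

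**Figure D2:**
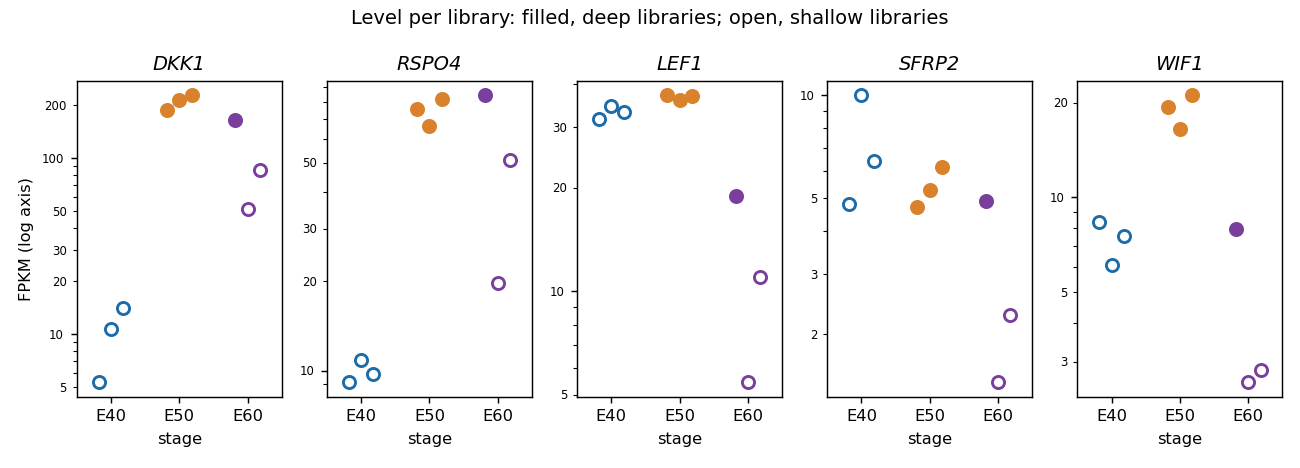
FPKM on a log axis by stage for DKK1, RSPO4, LEF1, SFRP2 and WIF1, with one point per library, filled for deep and open for shallow libraries. DKK1 and RSPO4 lie higher in every E60 library than in every E40 library, and LEF1 lies lower in every E60 library than at E40 or E50.

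Counted over all roles, the E40 to E50 comparison of the stage fit called 14 of the 44 tested members, beside 38.6% of all tested rows. The 11 that rose were CTNNB1, DKK1, DKK2, FZD3, FZD4, LRP6, RSPO2, RSPO4, WIF1, WNT11 and WNT5A (16.8% of all rows rose), and the 3 that fell were FZD9, WNT2B and WNT8B (21.8% of all rows fell). The median log2 difference was 1.16 over the members and 0.55 over all rows. All 14 had the same sign between the deep and shallow libraries of E60, which share no library with this comparison, as did 96.4% of all rows called. Median-ratio scaling moved the median of all rows from 0.55 to -0.14 and called 13 members (background 36.5%), 9 higher and 4 lower, with 2343 rows higher and 4895 lower in place of 3296 and 4284. With the depth set in the fit the direction of CTNNB1, FZD3, LRP6 and WIF1 turned, the other 7 that had risen lay between 0.23 and 3.16, and those that had fallen between -2.01 and -0.36. The member median became -0.22, with 16 of 44 above 0 in place of 34, beside -0.36 over all rows. In this fit 0 members were called from E40 to E50 (background 0.255%). An unadjusted p under 0.05 was reached by 6 of 44, beside 1483 of 19618 rows. Limma-voom on the recovered reads called 1, DKK1, beside 113 of 19618 rows. Leaving out E40 library 1, E50 library 2 or E50 library 3 left 1 call in the stage fit, beside 1.09%, 0.297% and 0.297% of all rows. Leaving out E60 library 1 gave 24 (background 54.6%) and leaving out E60 library 2 gave 23 (background 52.4%).

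**Figure D3:**
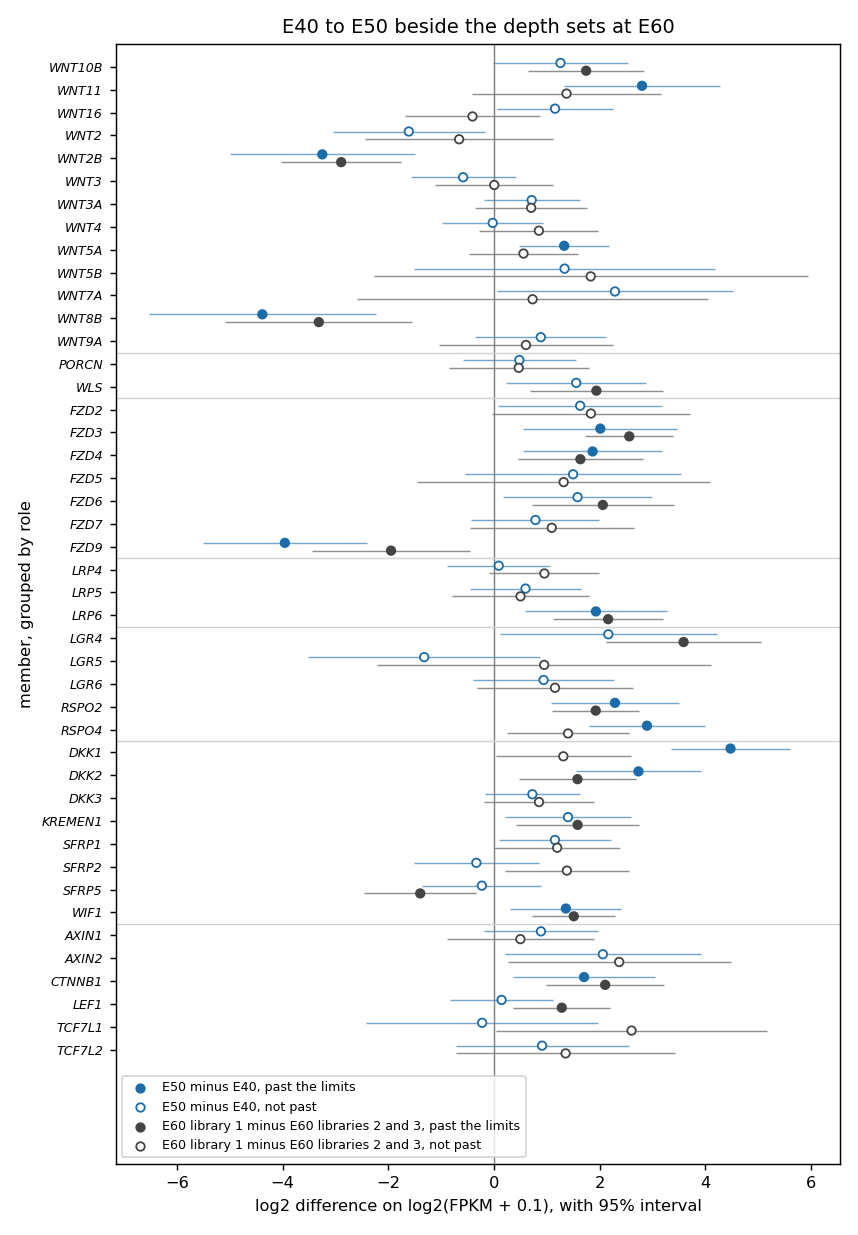
Log2 difference of the 44 tested members from E40 to E50 in the stage fit (blue) and between E60 library 1 and E60 libraries 2 and 3 (grey), with 95% intervals, filled where past the limits. Most members lie on the same side of 0 in both, and DKK1 lies farther from 0 in the stage comparison, at 4.48, than between the E60 libraries, at 1.32.

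Between depth sets at E60 itself, 17 members passed the limits (background 43.9%), 13 higher (26.7% of all rows) and 4 lower (17.2% of all rows) in the deep library. From E40 to E60 the stage fit called DKK1 alone (background 1.80%). Inside the shallow libraries 5 members were called (background 5.89%), of which DKK1 and RSPO4 rose (1.41% of all rows rose) and LEF1, SFRP2 and WIF1 fell (4.48% of all rows fell). The median difference there was -0.36 over the members and -0.46 over all rows. Median-ratio scaling, which centres the libraries on the median row, moved the latter to -0.03 and also called 5 members (background 4.88%), 4 higher (DKK1, DKK2, RSPO4 and WNT11) and 1 lower (LEF1), with 525 rows higher and 443 lower in place of 276 and 879. Leaving out a library gave 2 (without E50 library 3, background 2.39%) to 12 (without E60 library 3, background 20.2%), and the shallow libraries fitted alone gave 1 (background 1.30%). From E50 to E60 limma-voom in the stage fit called 1 member, beside 61 of 19618 rows. By limma the stage fit called 0 members (background 0.0714%), with 15 of 44 at an unadjusted p under 0.05, beside 5923 of 19618 rows. Without E60 library 1, the only deep library of E60, it called 26 members, 3 higher and 23 lower (background 59.1%). The stage and depth set fit also called 0 (background 0.107%), with 6 at an unadjusted p under 0.05, and limma-voom called 1, WNT16, a ligand that had 3.02, 1.54 and 2.44 FPKM in the E40 libraries, 4.86, 4.97 and 5.66 FPKM in the E50 libraries, and 0.878 FPKM in E60 library 1 beside 0.879 and 1.61 FPKM in E60 libraries 2 and 3. E60 library 1 lay below the 3 E50 libraries, and WNT16 was singled out after its values were seen.

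**Figure D4:**
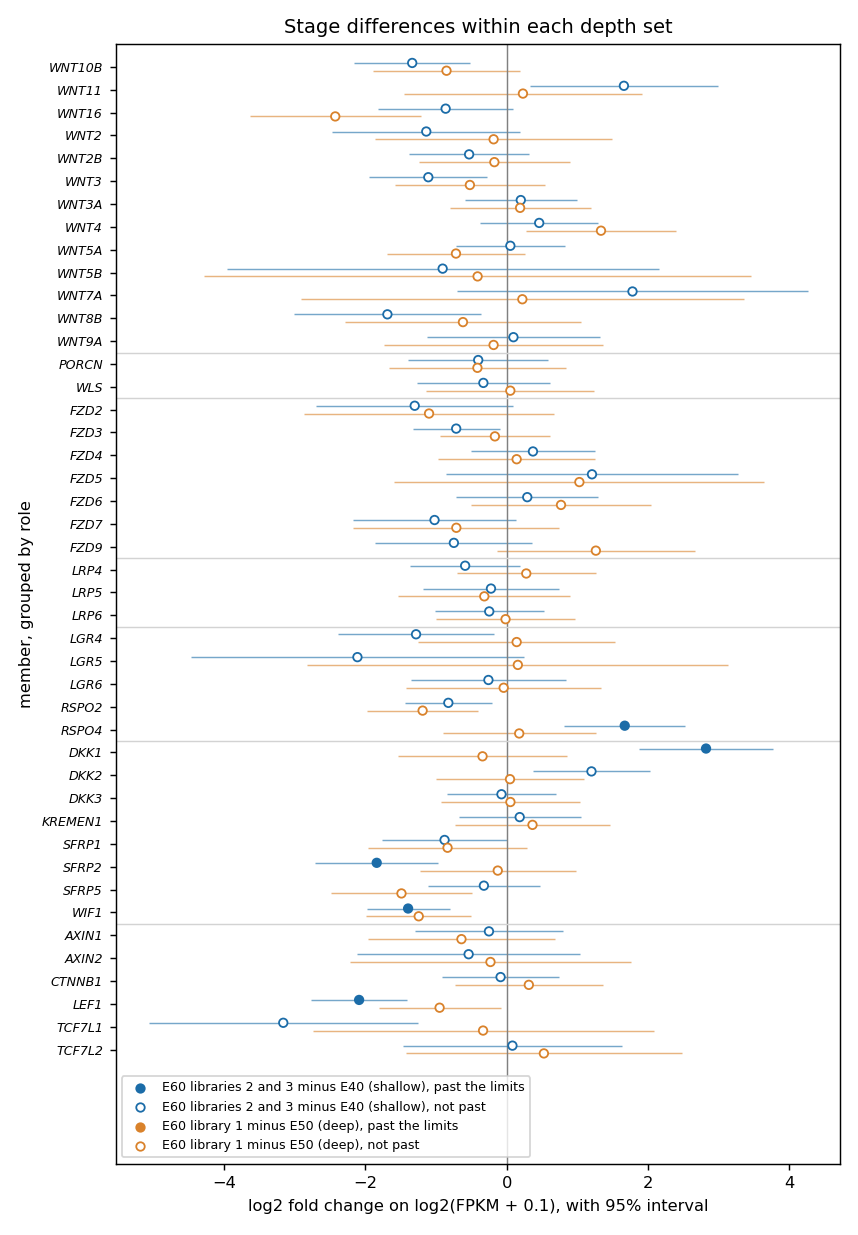
Log2 fold change of the 44 tested members from E40 to E60 inside the shallow libraries (blue) and from E50 to E60 inside the deep libraries (orange), with 95% intervals, filled where past the limits. DKK1 and RSPO4 are the filled points to the right of 0, LEF1, SFRP2 and WIF1 those to the left, and no orange point is filled.

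Ratios of members within a library do not depend on its total, although the depth sets differed unequally between members. The pairs were chosen after the values were seen and are given with no test. DKK1 over SFRP1 was 0.0643, 0.110 and 0.114 at E40, 0.839, 0.995 and 0.998 at E50, and 1.33, 1.5 and 0.996 in E60 libraries 1, 2 and 3. E40 stood below all later libraries, deep or shallow, and DKK1 made up 3.58 to 6.91% of the summed inhibitor FPKM at E40 and 34.5 to 41.5% at E60. RSPO4 over RSPO2 was 1.55 to 2.16 at E40, 2.33 to 3.24 at E50 and 7.36, 7.52 and 15.6 at E60, with no overlap between the stages. FZD6 over FZD2 was 0.238 to 0.423 at E40, 0.256 to 0.407 at E50 and 1.14, 1.48 and 0.641 at E60. WNT4 over WNT10B was 2.39 to 5.64 at E40, 1.42 to 1.46 at E50 and 6.69, 10.6 and 16.3 at E60. Both ratios were highest in the E60 libraries. Some terms rested on few reads. At E40, DKK1 had 4, 9 and 15 reads, RSPO4 had 6, 8 and 9, and RSPO2 had 11, 16 and 23. WNT10B had 7, 10 and 7 at E40 and 3 and 6 in E60 libraries 2 and 3. FZD2 had 7 reads in E60 library 2, and RSPO2 had 10 and 16 in E60 libraries 2 and 3. LEF1 over CTNNB1 was 0.150 to 0.212 at E40, 0.0566 to 0.0658 at E50 and 0.0254, 0.0444 and 0.0447 at E60, so that every later library lay below E40.

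**Figure D5:**
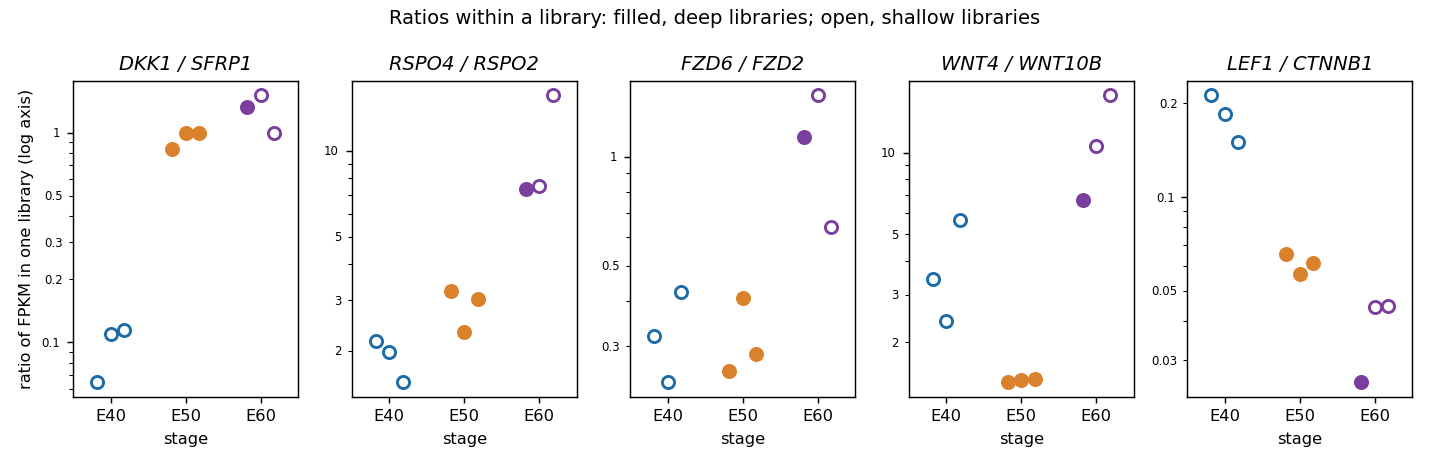
Ratio of the FPKM of a pair of members in the same library, on a log axis by stage, filled for deep and open for shallow libraries. DKK1 over SFRP1 is at most 0.114 at E40 and at least 0.839 later, and RSPO4 over RSPO2 is at least 7.36 at E60 and at most 3.24 before.

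Other genes of the pathway, from a list of 47 of which 38 were tested, gave 7 calls from E40 to E50 in the stage fit, 5 higher and 2 lower, or 18.4% beside 38.6% of all rows. Inside the shallow libraries 2, or 5.26% beside 5.89%, were called from E40 to E60. FRZB, a secreted inhibitor related to the SFRPs, rose by 1.42 ± 0.34 (limma adjusted p = 0.0488), and TLE2, a co-repressor that binds TCF proteins, was lower at -1.46 ± 0.32 (adjusted p = 0.0359). FRZB had 10, 12 and 17 reads at E40 and 29 and 83 in E60 libraries 2 and 3. TLE2 had 12, 16 and 17 at E40 and 5 and 11 there. Both calls are given for the main setting only. The median of the 38 was -0.47, beside -0.46 over all rows.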

How the data were processed

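Per the labels and the study's methods, RNA depleted of rRNA was sequenced as strand-marked paired reads and aligned with TopHat to Sscrofa 10.2. The authors deposited 1 table of FPKM values, made per gene, with no further scaling stated. The counting settings are not given in the sources used here.

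From it, whole reads were recovered within 0.0001 reads, and limma 3.58.1 in R 4.3.3 (mean-variance trend, Benjamini-Hochberg per comparison over all 19618 tested rows) was run on log2(FPKM + 0.1), which understates changes of low genes. The depth sets were split at 5000000 recovered reads. On simulated data both fits recovered most changed genes from E40 to E60 but also called genes that had not been changed. The stage and depth set fit recovered almost none from E50 to E60, so its lack of calls there says little. The simulated depth set effect had no shift common to all genes and was milder than in these data, where its median was 0.88 (log2). How the fits fare under a depth set effect as large as the real one was not tested.

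The gene families, lists and tests were chosen with earlier results of these data known; members were then found by symbol. Values in every library were given for members past the limits, for the highest 3 of each role and for known tooth genes. Alternatives were other pseudocounts, no filter, median-ratio scaling, limma-voom on recovered reads, a replicate block, only the compared stages, and leaving out each library. Those restricted to shallow libraries, median-ratio scaling without E60 library 1 and the depth set as an alternative to the stage fit were added after seeing the data. No sequences were used.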

Additional observations from a re-analysis of the deposited data

How the results depend on the processing

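Of 20 member differences recomputed under 350 alternatives in all, 230 kept direction and call, 116 kept direction and lost the call, and 4 reversed. With the depth set in the fit, chosen after seeing the data, the E40 to E50 values turned to -0.40 for CTNNB1, -0.55 for FZD3, -0.23 for LRP6 and -0.15 for WIF1, and the 10 other members called there lost the call. Apart from that, DKK1 kept its call from E40 to E50 in the stage fit under all alternatives, and it did so from E40 to E60 in the stage and depth set fit (2.43 to 3.27). In the latter, LEF1 kept its call under 15 of 16 alternatives, WIF1 under 10, SFRP2 under 6 and RSPO4 under 5. From E40 to E50, the 14 members called in the stage fit became 8 of 44 with the replicate block, beside 5104 of 19618 rows. With only the compared stages 25 of 43 were called, beside 11001 of 18802 rows. On leaving out a library the count ranged from 1 to 24. It was 1 without E40 library 1, E50 library 2 or E50 library 3, 24 without E60 library 1 and 23 without E60 library 2. From E50 to E60 the count of 0 became 1 with median-ratio scaling (beside 81 of 19838 rows) or limma-voom (61 of 19618 rows). It was 0 to 26 on leaving out a library (26 without E60 library 1, beside 59.1% of all rows). Median-ratio scaling without E60 library 1 called 12 of 44, beside 7434 of 19606 rows. From E40 to E60 the count of 1 became 2 with a pseudocount of 1, beside 696 of 19618 rows. Median-ratio scaling gave 5 with E60 library 1 (725 of 19838 rows) and 5 without it (954 of 19606 rows). The count was 0 with the replicate block (82 of 19618 rows) or only the compared stages (27 of 18974 rows). It was 0 to 6 on leaving out a library (6 without E60 library 2, beside 1173 of 19184 rows). In the stage and depth set fit, E40 to E50 went from 0 to 1 with median-ratio scaling (beside 42 of 19838 rows) or limma-voom (113 of 19618 rows). It stayed 0 on leaving out an E40 or E50 library and moved without E60 library 2 or 3, which leaves 1 shallow E60 library. E40 to E60 went from 5 to 2 with the replicate block (366 of 19618 rows) and 7 with a pseudocount of 1 (1916 of 19618 rows). Only the shallow libraries gave 1, DKK1 (239 of 18426 rows), and limma-voom on them 4 (858 of 18426 rows). Leaving out an E40 or E50 library gave 2 (468 of 19547 rows, without E50 library 3) to 4 (1007 of 19115 rows, without E40 library 1). The count rose further without E60 library 2 or 3, which leaves 1 shallow E60 library. The cause was not tested. Same-numbered libraries did not deviate together (r -0.515 to 0.109), beside r -0.378 to 0.423 for differently numbered ones. Stages held few libraries and E60 mixed deep and shallow ones, so this check cannot show whether the numbers pair libraries. Median-ratio scaling moved the median of all rows from 0.55 to -0.14 (E40 to E50) and from -0.64 to 0.12 (E50 to E60) in the stage fit, and from -0.46 to -0.03 (E40 to E60) in the stage and depth set fit. The stage and depth set fit cannot be made without E60 library 1. Shallow libraries held too few reads for low members: values of 3 reads or fewer cover counting error only.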
